A study of Mus musculus with 12 samples.

Results

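Fibroblast and extracellular matrix genes were taken from the series by name alone: every gene called Col with a chain number (collagens), and Sparc, Fn1, Timp1, Timp2, Timp3, Dcn, Lum, Mgp, Bgn, Postn, Vim, Serpinh1, Lox, Fstl1, Fbn1, Nid1, Lamb1, Lamc1, Thbs1, Igfbp7 and Ctgf. This gave 41 of 15391 genes, of which 20 are collagens and 21 are others; Ctgf is carried under its current symbol, Ccn2. A filter on low counts kept 31 of the 41. The other 10 (Lox, Col5a3, Col11a1, Col6a1, Col6a2, Col6a3, Col7a1, Col12a1, Col14a1 and Fbn1) are given as counts.

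The cells were cultured adult mouse dorsal root ganglion neurons of the genotype RPL22HA+/+;Advillin-Cre+, and all 4 groups carried the label Preconditioned, which refers to a sciatic nerve injury made in the mice before culture. In RiboTag mice Cre switches on an HA-tagged ribosomal protein Rpl22, here in cells that express Advillin (sensory neurons), so that an HA immunoprecipitate (IP) holds ribosomes of those cells with bound RNA and the input holds RNA of the whole lysate. The virus was AAV-shLarp1, which carries a hairpin against the RNA-binding protein Larp1, or a control virus titled AAV-Control for the IP and AAV-shControl for the input. Crossing virus and fraction gave the 4 groups, named here by virus and then fraction. The number of animals or cultures is not given in the sources used here, and the extraction text speaks of fresh ganglia where the source label says cultured cells.

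The extracellular matrix of a ganglion is built mainly by fibroblasts, with Schwann cells, satellite glia and vessel cells adding basement membrane. Collagen chains are hydroxylated, folded with the chaperone Hsp47 (Serpinh1), secreted, trimmed and cross-linked by lysyl oxidase (Lox). Fibronectin, laminins and nidogen carry the adhesion sites, matricellular proteins such as Sparc, periostin and thrombospondin tune cell contact with the matrix, and tissue inhibitors of metalloproteinases (Timps) limit its breakdown. Several of these genes are also active outside fibroblasts: vimentin and Timp1 can be made by glia and by injured neurons. In bulk RNA fewer cells of a type and less RNA per cell cannot be told apart.

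Depth was 3126591 to 3177552 counts in an IP column and 564095 to 760140 in an input column, so a member with few counts is measured much less precisely in input. The set took 0.256% of all counts in control IP, 0.271% in shLarp1 IP, 0.229% in control input and 0.190% in shLarp1 input. Of the 41 members, 40 to 41 had a count in each IP column and 32 to 37 in each input column. Larp1 had 147, 141 and 154 counts in control IP and 55, 49 and 45 in shLarp1 IP (log2 ratio -1.72, -1.999 to -1.450); its input columns held 5, 7 and 6 against 3, 3 and 2. The 3 columns of a group differed by only somewhat more than sampling noise. With a chi-square test, 6.98% to 7.62% of genes with 30 or more counts had a p under 0.05. Of the members, 0 of 35 did so in control IP and 2 of 36 in shLarp1 IP (Col5a1 and Thbs1). In input 0 of 13 did so with the control virus and 0 of 11 with shLarp1. Over the tested genes chi-square averaged 1.24 times its degrees of freedom in control IP and 1.25 times in shLarp1 IP. In input it averaged 1.43 times with the control virus and 1.42 times with shLarp1, where sampling noise alone would give 1. Members under 30 counts in a group were not tested, among them Timp3 in control input with 13, 14 and 0. Because most tested genes stayed within sampling noise, each group was counted as 1 sample. No p-value is given for a gene, and the differences have no replicate check. Overlap of columns is given below only to describe the columns, which share 1 scale per group. It is not support from replicates, and its share over all genes was not computed. Values in brackets after a log2 ratio are its exact 95% interval, which covers counting error only. The interval leaves out the spread above sampling noise, which was larger in input. The words higher, lower and called are kept for genes whose whole interval lies beyond 1.5-fold; other differences are given by their values.

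Larp1 is known to bind the cap and a terminal oligopyrimidine (TOP) tract, a C followed by pyrimidines at the very start of an mRNA. The annotated starts of the members were therefore read from RefSeq promoters (assembly GRCm38.p6), which held 29 of the 41. A start of C and 4 more pyrimidines was present in 2 of these 29 members (6.90%), Lamb1 and Col6a1, against 3.01% of all 27025 genes and 14 of 61 ribosomal protein genes (23.0%). The pattern began within 5 bases of the start in 13 of 29 members (44.8%), 21.2% of all genes and 47.5% of ribosomal protein genes. The windows printed here are those 2 members, Serpinh1 for the longest run among the members, and Vim, Timp1, Sparc and Fstl1 as the 4 most counted members with an entry. Each holds 10 bases before the start and the first 20 transcribed bases, on the gene's strand; capitals mark the run of pyrimidines from the first transcribed base.
Lamb1, chr12:31265283-31265312, plus strand: ttctaattccCTTCTTTgggccggtgggct
Col6a1, chr10:76726025-76726054, minus strand: cctccctccaCCCTCCCTggctctctcctc
Vim, chr2:13574301-13574330, plus strand: ttgtccagtcCTCTgccactcttgctccgg
Serpinh1, chr7:99353220-99353249, minus strand: ggtctttggcTTTTTTTCTCCTCTCCgagc
Fstl1, chr16:37777045-37777074, plus strand: caggtcggacTTCCTCggagcctggtgata
Timp1, chrX:20870156-20870185, plus strand: gcccgcccctaggctttgactccagcggtg
Sparc, chr11:55420061-55420090, minus strand: cagatgagacaggtggggccagggtgtctg
Vim has C and 3 pyrimidines, so it misses the pattern by 1 base, while Serpinh1 and Fstl1 start their runs with T, and Timp1 and Sparc have an A as the annotated start base. These are annotated starts, not starts measured in the samples.

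Between IP and input the set split. With the control virus, Fstl1, Timp2 and Vim were higher in the IP, and Sparc, Fn1, Timp1 and Mgp were lower, which is 3 higher and 4 lower of 31 members against 23.0% higher and 12.5% lower of 8773 genes. With shLarp1 the same 3 were higher and Fn1, Sparc and Timp1 were lower, 3 and 3 of 31 against 25.9% and 13.1% of 8771 genes. The count of lower members lies near the background, and 24 and 25 of 31 members were not called. The median of the members with counts in both fractions was -0.29 with the control virus and -0.04 with shLarp1, where all genes had 0.38 and 0.64. With genes at 0 input counts placed at the top these medians were -0.27 and -0.04, against 0.71 and 0.93. Markers of sensory neurons had medians of 1.83 and 1.92, with 16 and 18 of 24 called higher.

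The zero of this ratio depends on the scaling, whereas the distance between members and all genes (-0.67 and -0.68) does not. Scaling to total counts moved every ratio up by 0.98 with the control virus and 1.34 with shLarp1, which put the member medians at 0.69 and 1.30; 20 of 31 members changed sign between the lowest and the highest of the 5 scalings in each of these comparisons. With total counts 10 members were higher and 2 lower with the control virus, and 14 and 2 with shLarp1; with upper-quartile scaling 1 was higher and 8 lower, and 1 and 6. Sparc and Fn1 were called lower and Fstl1 higher under all 5 scalings with either virus. A 2-fold rule in place of 1.5-fold left Fstl1 higher and Fn1, Sparc and Timp1 lower with either virus, so Vim, Timp2 and Mgp were not called under it.

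**Figure D1:**
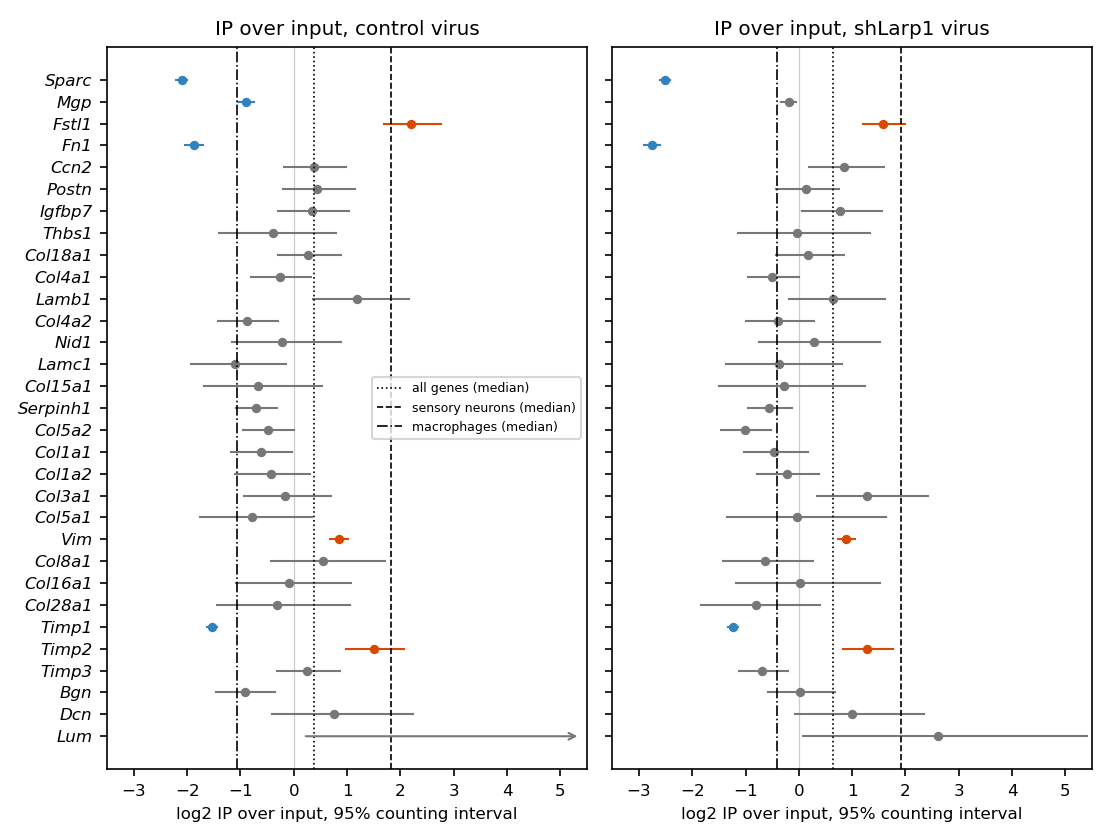
Log2 ratio of IP to input for the 31 members that passed the filter, with 95% counting intervals, for the control virus (left) and shLarp1 (right). Orange marks members called higher in the IP, blue those called lower, grey the rest; vertical lines are medians of all genes, sensory neuron markers and macrophage markers. Fstl1 and Timp2 lie nearest the neuronal median in the left panel, and Sparc and Fn1 lie farthest below it in both; the arrow for Lum marks 0 control input counts.

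Between the viruses no member was called: 0 higher and 0 lower of 31 in the IP, where 0.719% of 8766 genes were higher and 4.40% lower, and 0 and 0 of 31 in input, where 0.171% and 1.01% of 7588 genes were. The direction over all genes in input depended on the scaling. The scaling used here had 13 genes higher and 77 lower, and total counts 7 and 204. DESeq2 factors gave 181 and 35, upper-quartile factors 117 and 43, and TMM with a control IP reference 214 and 29. Leaving out any 1 input column gave 202 to 224 higher and 21 to 34 lower. The member median was -0.13 in the IP (all genes -0.08) and -0.27 in input (all genes -0.14). Equal counts in both inputs give -0.20 on this scale. In the IP, 14 of 31 members had an interval that excludes no change, 3 above it and 11 below, where 13.4% and 29.6% of all genes did. In input 5 of 31 did, 3 above and 2 below, where 9.01% and 9.16% of all genes did. Both totals lie near those of all genes (43.0% in the IP and 18.2% in input), and none of the members' intervals lay wholly beyond 1.5-fold. The virus effect in the IP minus that in input, the interaction, called 0 members higher and 1 lower (Fn1), against 1.38% and 5.57% of 7588 genes.

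**Figure D2:**
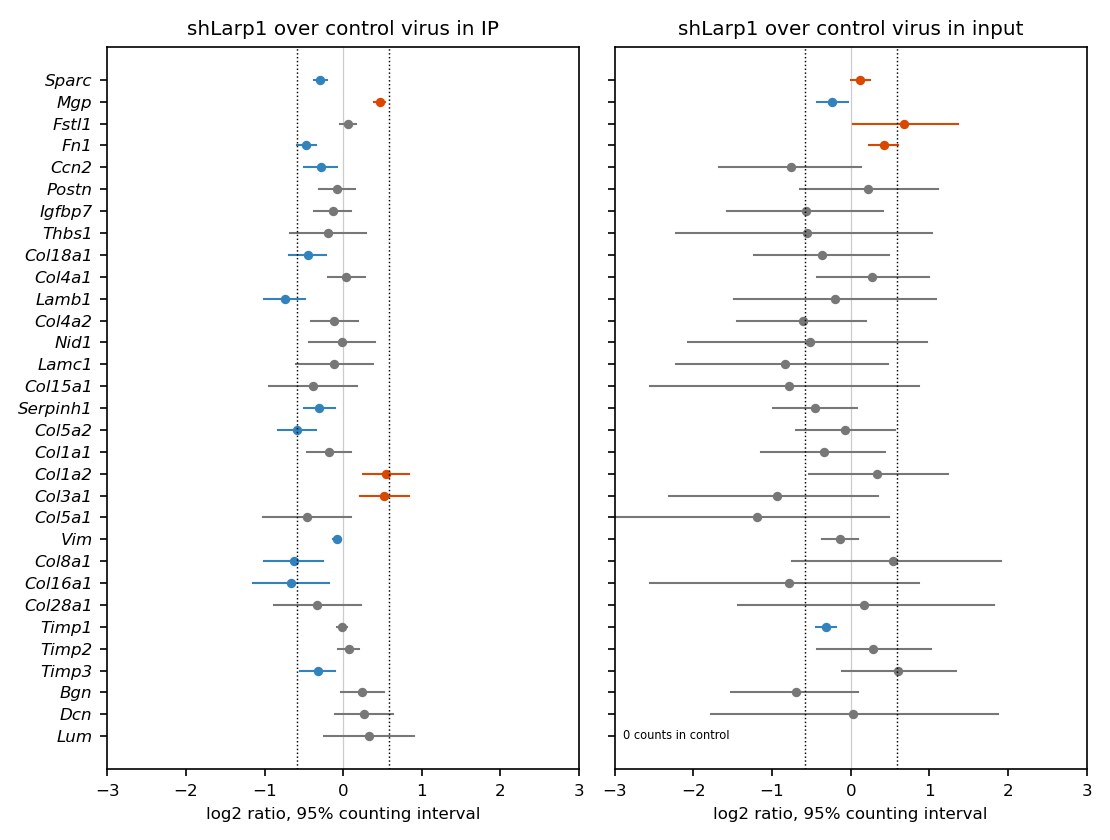
Log2 ratio of shLarp1 to control virus for the same 31 members in IP (left) and input (right), with 95% counting intervals. Orange and blue mark intervals wholly above or below 0, and dotted lines mark 1.5-fold. Intervals are narrow in the IP and wide in input, and none lies wholly outside the dotted lines.

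The adhesive and matricellular proteins held both the lowest and, with the control virus and among members with input counts, the highest ratios of IP to input. Sparc, a collagen-binding calcium-binding glycoprotein, had 886, 963 and 932 counts in control IP and 843, 817 and 868 in shLarp1 IP. Its input columns held 332, 393 and 376 with the control virus and 430, 483 and 463 with shLarp1. On the scaled levels input lay far above the IP with both viruses and the columns did not overlap: Sparc was 4.28-fold lower in control IP (log2 -2.10, -2.200 to -1.997) and 5.71-fold lower in shLarp1 IP (-2.51, -2.61 to -2.42). Between the viruses it had -0.29 (-0.37 to -0.21) in the IP and 0.12 (0.01 to 0.24) in input; the latter turned to -0.11 with total counts.

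Fn1, fibronectin, had the same shape. It had 409, 403 and 371 counts in control IP, 313, 321 and 317 in shLarp1 IP, 136, 113 and 150 in control input and 223, 192 and 198 in shLarp1 input. Every scaled input column lay above every IP column: Fn1 was 3.65-fold lower in control IP (-1.87, -2.03 to -1.70) and 6.76-fold lower in shLarp1 IP (-2.76, -2.91 to -2.61). Between the viruses Fn1 had -0.47 (-0.59 to -0.34) in the IP and 0.42 (0.24 to 0.61) in input, neither called, and the columns of the viruses did not overlap in either fraction. The difference between these effects was called lower (-0.89, -1.11 to -0.67); with total counts it was -0.53 and not called.

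A class of 752 genes averaged a log2 ratio below -2 between IP and input over the viruses, and Fn1 and Sparc were its 2 members of the set. The genes of that class had a median virus effect of -0.48 in the IP, 0.43 in input and -0.91 in the interaction, against -0.01, -0.20 and 0.16 in the 6836 other genes with input counts. The values of Fn1 (-0.47, 0.42 and -0.89) lie beside those of the class, and those of Sparc (-0.29, 0.12 and -0.41) between the classes. The part of this class in the results for Fn1 and Sparc was not tested.

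Mgp, matrix Gla protein, an inhibitor of calcification, had the highest virus effect in the IP of the 8 adhesive and matricellular members. Its counts were 831, 868 and 838 in control IP, 1328, 1265 and 1300 in shLarp1 IP, 140, 146 and 149 in control input and 142, 141 and 141 in shLarp1 input. The IP columns of the viruses did not overlap, and Mgp had 0.47 (0.39 to 0.54), which is 1.38-fold and was not called. In input it had -0.23 (-0.43 to -0.04), a value that became 0.0006 when a control IP column served as the reference for scaling. Its IP to input ratio was -0.89 (-1.04 to -0.74) with the control virus, which was called, and -0.19 (-0.34 to -0.04) with shLarp1, which was not; total counts turned the control value to 0.09, and without the filter on low counts it was not called. The difference between the virus effects was 0.70 (0.49 to 0.91), not called. Set against Fn1 within the same samples, which needs no scaling, Mgp had a log2 difference between the viruses of 0.93 (0.79 to 1.08) in the IP. In input this difference was -0.66 (-0.92 to -0.39). Mgp and Fn1 hold the highest and lowest virus effects in the IP of this group, so this pair was bound to lie farthest apart there.

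Fstl1, a secreted follistatin-like glycoprotein of the Sparc family, lay opposite to Sparc. It had 533, 471 and 539 counts in control IP and 609, 558 and 618 in shLarp1 IP, but 8, 10 and 13 in control input and 18, 22 and 17 in shLarp1 input. The scaled IP columns lay above all input columns: Fstl1 was 4.60-fold higher in control IP (2.20, 1.69 to 2.76) and 2.99-fold higher in shLarp1 IP (1.58, 1.20 to 1.98). Relative to Sparc its ratio of IP to input was 19.4-fold higher with the control virus and 16.9-fold with shLarp1. Fstl1 and Sparc hold the highest and lowest of these ratios in this group with the control virus, so this pair was bound to lie farthest apart there. Between the viruses Fstl1 had 0.06 (-0.04 to 0.16) in the IP and 0.68 (0.03 to 1.36) in input. The other 4 members of this group, Ccn2 (connective tissue growth factor), Postn (periostin), Igfbp7 and Thbs1 (thrombospondin 1), had ratios of IP to input from -0.40 to 0.43 with the control virus and from -0.03 to 0.85 with shLarp1, none called. In the IP their virus effects ran from -0.28 for Ccn2 (-0.49 to -0.07) to -0.08 for Postn.

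**Figure D3:**
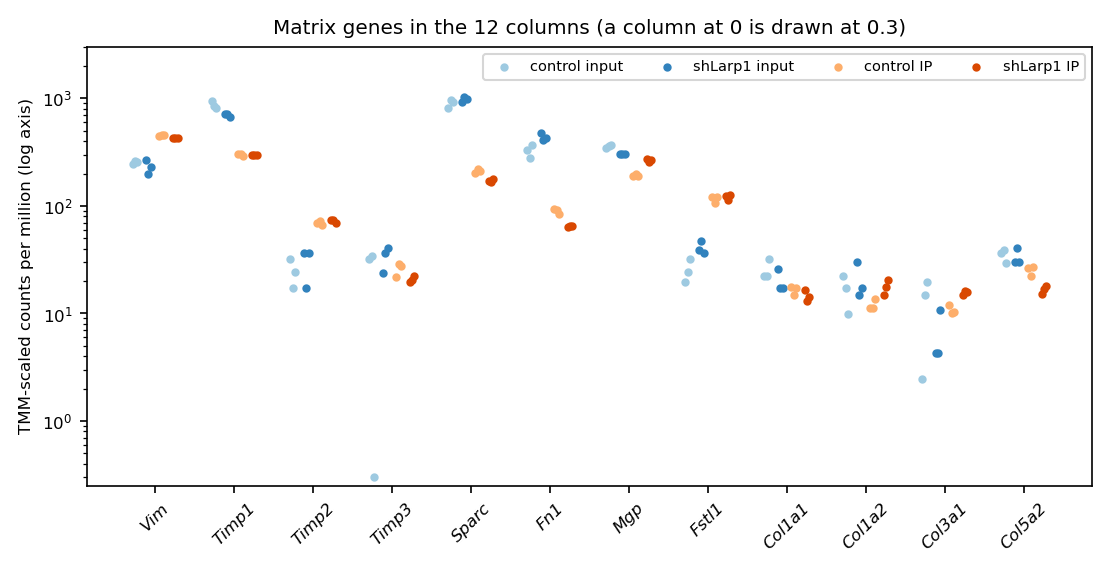
TMM-scaled CPM (log axis) of 12 members in each of the 12 columns, 3 points per group; blue is input and orange is IP, with the darker shade for shLarp1, and a control input column of Timp3 with 0 counts is drawn at 0.3. Sparc, Fn1 and Timp1 lie higher in input and Fstl1, Timp2 and Vim higher in the IP, and the points of a group lie close together where counts are high.

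The 3 metalloproteinase inhibitors separated from each other. Timp1, the secreted inhibitor that injured nerve makes, had 1329, 1346 and 1295 counts in control IP, 1450, 1470 and 1448 in shLarp1 IP, 385, 347 and 330 in control input and 334, 332 and 313 in shLarp1 input. It was 2.90-fold lower in control IP than in input (-1.53, -1.63 to -1.43) and 2.35-fold lower in shLarp1 IP (-1.23, -1.33 to -1.13), although with total counts it was called with neither virus and the latter turned to 0.11. Timp2, which also takes part in activating Mmp2, had 303, 317 and 296 counts in control IP, 365, 360 and 343 in shLarp1 IP, 13, 7 and 10 in control input and 17, 8 and 17 in shLarp1 input. It was 2.82-fold higher in control IP (1.496, 0.97 to 2.07) and 2.42-fold higher in shLarp1 IP (1.28, 0.83 to 1.76); Timp2 was not called with either virus under upper-quartile scaling, or with shLarp1 without input column 2.

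Timp2 thus stood 8.04-fold above Timp1 in its ratio of IP to input with the control virus (log2 3.01, 2.48 to 3.54) and 5.64-fold above it with shLarp1 (2.49, 2.04 to 2.95), values that do not depend on the scaling. Timp2 and Timp1 hold the highest and lowest of these ratios among the Timps, so this pair was bound to lie farthest apart. Timp3, the inhibitor that stays bound to matrix, had 97, 127 and 122 counts in control IP, 96, 101 and 110 in shLarp1 IP, 13, 14 and 0 in control input and 11, 17 and 19 in shLarp1 input. The control input column at 0 stands apart from the other 2, and with it the ratio was 0.24 (-0.32 to 0.87) with the control virus, against -0.68 (-1.13 to -0.21) with shLarp1. Without that column the control ratio of Timp3 was -0.41 (-0.98 to 0.21) and its virus effect in input 0.27 (-0.45 to 1.01). Its interaction was -0.51 (-1.22 to 0.20) in place of -0.92 (-1.63 to -0.20). The scaling was recomputed without the column, so these moves are not those of the column alone. Between the viruses Timp1 had -0.01 in the IP and -0.31 (-0.44 to -0.19) in input, Timp2 had 0.07 and 0.29, and Timp3 -0.32 (-0.55 to -0.10) and 0.60 (-0.11 to 1.34). In the RefSeq annotation Timp1 overlaps the synapsin gene Syn1 (548 and 640 IP counts, 8 and 13 input counts) and Timp3 overlaps Syn3 (200 and 87 IP counts). Igfbp7 overlaps Polr2b (111 and 80 IP counts), Col4a1 and Col4a2 overlap each other, and Timp2 overlaps Cep295nl, which has no row. The use of strand in counting is not given in the sources used here, so reads of these overlapping genes cannot be told apart with certainty.

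Vim, the intermediate filament of mesenchymal cells and glia, was the most counted member in the IP. It had 1967, 2029 and 2011 counts in control IP, 2095, 2102 and 2109 in shLarp1 IP, 99, 107 and 104 in control input and 124, 93 and 107 in shLarp1 input. It was 1.79-fold higher in control IP (0.84, 0.68 to 1.01) and 1.86-fold higher in shLarp1 IP (0.89, 0.73 to 1.06), and the scaled columns did not overlap. These calls of Vim were lost without control input column 1 or 3 and without any 1 of the shLarp1 input columns. Both were lost with upper-quartile scaling, and the call with shLarp1 also with a control IP column as the scaling reference. Leaving out a column also recomputed the scaling of all genes. Without 1 input column, genes higher in the IP went from 2021 to between 1446 and 1469 with the control virus. With shLarp1 they went from 2274 to between 1341 and 1357. The part of this shift in the losses of Vim was not tested. The virus effect was -0.08 (-0.13 to -0.03) in the IP, which total counts turned to 0.05, and -0.13 (-0.36 to 0.10) in input. Vim, Timp1, Sparc, Mgp and Fstl1 made up 70.1% of the set's counts in control IP and 73.0% in shLarp1 IP. In input Sparc, Timp1, Mgp, Fn1 and Vim made up 85.2% and 86.0%.

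Fibrillar collagens form the tensile fibres of connective tissue, and 5 of the 7 with a row passed the filter. Their ratios of IP to input ran from -0.78 (Col5a1) to -0.17 (Col3a1) with the control virus and from -1.01 (Col5a2) to 1.28 (Col3a1) with shLarp1, and 0 of 5 were called in any comparison. Col5a2 was called lower with shLarp1 under 3 of the 5 scalings, but not under the one used here, and had 0.33 with total counts. Col1a1, a chain of type I collagen, had 77, 65 and 76 counts in control IP, 81, 64 and 69 in shLarp1 IP, 9, 9 and 13 in control input and 12, 8 and 8 in shLarp1 input. Its IP columns overlapped between the viruses (-0.18, -0.46 to 0.10).

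Col1a2, its partner chain, had 50, 50 and 60 counts in control IP and 73, 87 and 100 in shLarp1 IP (0.55, 0.26 to 0.84); input held 9, 7 and 4 against 14, 7 and 8. Col5a2, a chain of type V collagen that regulates fibre width, went the other way in the IP with 116, 98 and 118 against 75, 82 and 88 counts (-0.59, -0.83 to -0.35), and had 15, 16 and 12 against 14, 19 and 14 in input. Col3a1, the type III collagen chain, singled out after its values were seen, had 53, 45 and 46 against 73, 79 and 78 counts (0.52, 0.22 to 0.83). The columns of the viruses did not overlap in the IP for any of these 3, and overlapped in input for all 3. Set against Col5a2 in the same IP samples, the virus effect differed by 1.14 (0.77 to 1.51) for Col1a2 and by 1.11 (0.73 to 1.49) for Col3a1, the gene adjacent to Col5a2. Col1a2 and Col1a1 differed by 0.73 (0.33 to 1.12). These differences on the log2 scale need no scaling factor. Col1a2 and Col5a2 hold the highest and lowest virus effects in the IP of the evaluated fibrillar members, so this pair was bound to lie farthest apart.

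Basement membrane members were led in counts by Col18a1, the source of endostatin, Col4a1, a chain of the type IV network, and Lamb1, the laminin beta-1 chain. Lamb1 had 104, 96 and 97 counts in control IP and 59, 63 and 75 in shLarp1 IP, with 4, 5 and 3 against 4, 5 and 3 in input. All shLarp1 IP columns lay below the control columns, and its value of -0.74 (-1.01 to -0.48) was the lowest virus effect in the IP among the 31 members; the interval reached inside 1.5-fold. Its virus effect differed by -0.63 (-1.17 to -0.09) from that of Lamc1, the laminin gamma-1 chain, and by -0.72 (-1.20 to -0.24) from that of nidogen (Nid1). As Lamb1 was the lowest of the 31 members, these differences were bound to be negative. Its ratio of IP to input was 1.19 (0.37 to 2.16) with the control virus and 0.65 (-0.19 to 1.62) with shLarp1.

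Col18a1 had 124, 124 and 103 counts in control IP against 92, 103 and 90 in shLarp1 IP (-0.45, -0.68 to -0.22), and 10, 6 and 11 against 9, 11 and 4 in input. Col4a1 had 99, 80 and 100 against 112, 115 and 92 (0.04, -0.20 to 0.28), and 13, 10 and 8 against 17, 14 and 12 in input. Col4a2 (which overlaps Col4a1), Nid1, Lamc1 and Col15a1 had virus effects of -0.38 to -0.02 in the IP, and every one of these intervals included no change. No basement membrane member was called between IP and input, where the values ran from -1.09 (Lamc1) to 1.19 with the control virus and from -0.50 (Col4a1) to 0.65 with shLarp1.

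Of the 2 members that process collagen, Serpinh1 had 159, 155 and 137 counts in control IP, 141, 128 and 137 in shLarp1 IP, 22, 22 and 24 in control input and 17, 23 and 17 in shLarp1 input. It lay below 0 in both ratios of IP to input (-0.71, -1.08 to -0.32, and -0.56, -0.96 to -0.13) and in the virus effect in the IP (-0.30, -0.50 to -0.11), without a call. Lox had 9, 9 and 9 counts in control IP, 12, 15 and 12 in shLarp1 IP, 0 in each control input column, and 1, 0 and 1 in shLarp1 input. With control input set to a floor of 3 counts over the group, control IP would be 0.83-fold of input, so the depth does not show on which side Lox lies.

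The small leucine-rich proteoglycans bind collagen fibres, and all 3 lay above 0 in the virus effect in the IP without a call. Bgn (biglycan) had 64, 68 and 62 counts in control IP and 91, 72 and 92 in shLarp1 IP (0.24, -0.03 to 0.52), and 9, 9 and 16 against 8, 6 and 10 in input. Dcn (decorin) had 43, 34 and 33 against 50, 44 and 53 in the IP (0.27, -0.10 to 0.64), and 2, 4 and 0 against 3, 2 and 2 in input. Lum (lumican) had 12, 13 and 21 against 22, 22 and 20 in the IP (0.32, -0.24 to 0.90), where its columns overlapped on the scaled level. Lum had 0 counts in all control input columns and 1, 0 and 0 with shLarp1. With control input set to the floor of 3 counts, its control IP level would be 1.42-fold that of input. The floor is a fixed setting and not an interval limit, and Lum was not called in this comparison.

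Type VI collagen chains form beaded filaments and fibrillin (Fbn1) forms microfibrils; none of these 4 members passed the filter. Col6a3 had 21, 23 and 15 counts in control IP and 3, 4 and 6 in shLarp1 IP (-2.33, -3.33 to -1.45). Col6a1 had 7, 8 and 5 against 13, 9 and 18 (0.85, 0.04 to 1.70). Col6a2, named after its values were seen, had 6, 7 and 6 against 17, 9 and 13 (0.89, 0.06 to 1.76). The virus effects of Col6a1 and Col6a2, which are adjacent genes, differed from that of Col6a3 by 3.12 (1.98 to 4.27) and 3.16 (2.001 to 4.316) on the log2 scale. Col6a3 had the lowest virus effect of these chains, so both differences were bound to be positive. Input held 1 to 4 counts of each chain per group, too few for a comparison. Fbn1 had 10, 17 and 13 against 10, 8 and 10 counts in the IP (-0.67, -1.42 to 0.07). With no filter on low counts, 2 members would be called in this comparison, Col6a3 and the fibrillar Col11a1, also named after its values were seen, with 5, 4 and 6 against 0, 0 and 1 counts. Without that filter 6.93% of all genes were called there.

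Among the other collagens, Col8a1, a short-chain network collagen, had 51, 43 and 48 counts in control IP and 37, 36 and 29 in shLarp1 IP (-0.63, -1.01 to -0.25), and 4, 2 and 3 against 4, 5 and 6 in input. Col16a1, a fibril-associated collagen, had 27, 41 and 23 against 25, 21 and 18 (-0.66, -1.14 to -0.18) and 3, 5 and 1 against 1, 2 and 3 in input. Col28a1, known from peripheral nerve, had 19, 27 and 15 against 13, 23 and 18 (-0.33, -0.88 to 0.22), with 2, 3 and 2 against 3, 5 and 1 in input. The columns of the viruses did not overlap in the IP for Col8a1 and Col16a1 on the scaled level and overlapped for Col28a1. Col7a1, Col12a1 and Col14a1 had 13 to 36 IP counts a group.

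The label of the set was set against fibroblast markers that are not members. Of 25 such genes 13 had a row, and 8 passed the filter; Pdgfra, the most used fibroblast receptor, was below it, and Pdgfra, Cd34, Prrx1, Abca8a and Il33 were at 0 in shLarp1 input. The list's summed raw counts per column were 2734 to 2831 in control IP, 3430 to 3458 in shLarp1 IP, 226 to 245 in control input and 270 to 275 in shLarp1 input. In the same order, the list's shares of all counts were 0.0893%, 0.1085%, 0.0415% and 0.0359%. Its ratios of IP to input split as those of the set did: Thy1 (2.45, 2.03 to 2.91), which sensory neurons also express, and Gsn (gelsolin; 2.19, 1.48 to 3.00) were higher with the control virus, and Pi16 (-1.69, -2.25 to -1.11) and Medag (-1.61, -1.92 to -1.29) were lower. With shLarp1, Thy1 (2.21), Gsn (1.90) and Apod (1.85) were higher and Pi16 (-3.39) and Medag (-3.08) lower. In the IP Apod, a secreted lipocalin, was higher with shLarp1 (1.25, 1.15 to 1.35) and Medag lower (-1.13, -1.39 to -0.88). The interaction was higher for Apod (1.51) and lower for Pi16 (-1.68) and Medag (-1.46).

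Summed markers of other cells were measured beside the set. The values per column are raw counts, and shLarp1 input held 2279226 counts in all against 1693039 in control input. As shares of control and then shLarp1 input, glia markers took 0.1105% and 0.1163% and macrophage markers 0.0143% and 0.0089%. Mural markers took 0.0168% and 0.0087%, and endothelial markers 0.0015% and 0.0009%. Sensory neuron markers (24 of 24 genes) took 32732 to 33052 counts per column in control IP, 37995 to 38419 in shLarp1 IP, 1187 to 1248 in control input and 891 to 923 in shLarp1 input, with none at 0. Schwann and satellite glia markers (20 of 20) took 2777 to 2798, 2897 to 2930, 599 to 637 and 831 to 923, also with none at 0. Macrophage markers (12 of 14) took 442 to 444, 496 to 518, 78 to 83 and 64 to 70, with Mrc1 at 0 in both inputs, and mural cell markers (6 of 8) took 517 to 588, 486 to 551, 87 to 101 and 61 to 70. Endothelial markers (10 of 11) took 63 to 88, 67 to 82, 6 to 11 and 5 to 9, with Flt1 and Vwf at 0 in control input and Pecam1, Kdr, Vwf and Esam in shLarp1 input. Their medians of IP over input with the control virus were 0.04 (glia), -1.07 (macrophages) and -0.91 (mural cells), and with shLarp1 0.10, -0.42 and 0.04. These medians rest on only the 16 glia, 7 macrophage and 5 mural genes that passed the filter. The neuronal markers' share of counts moved with the virus, from 1.05% to 1.20% in the IP and from 0.217% to 0.119% in input, and its part in the virus effects on the set was not tested.

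**Figure D4:**
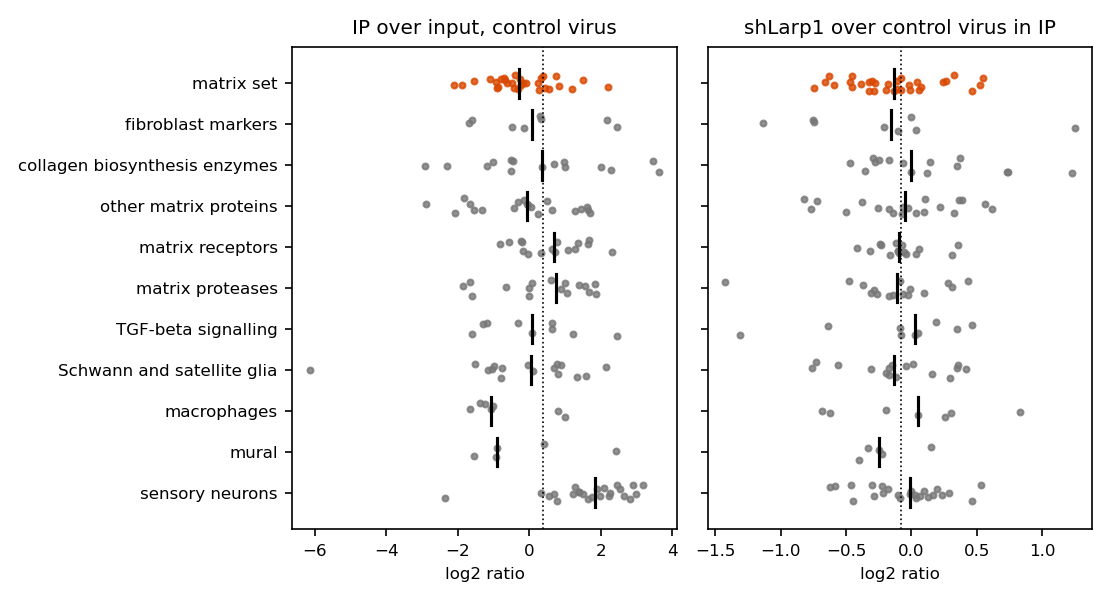
Log2 ratios of genes that passed the filter and had counts in both groups, by list: IP over input with the control virus (left) and shLarp1 over control virus in the IP (right). Each point is a gene, black bars are list medians, orange marks the matrix set and the dotted line is the median of all genes. Neuronal markers lie to the right in the left panel, while every list drawn in the right panel has genes on both sides of 0.

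The rest of the matrix pathway was read from lists of related genes. Counts of called genes in these lists are to be read against the shares of all genes. These were 23.0% higher and 12.5% lower in control IP over input, and 25.9% and 13.1% with shLarp1. Between the viruses they were 0.719% and 4.40% in the IP and 0.171% and 1.01% in input. For the interaction they were 1.38% and 5.57%. Of 15 evaluated collagen biosynthesis enzymes, 3 were higher and 3 lower in control IP over input (median 0.37); the largest ratios were Mia3, which loads collagen into transport carriers (3.64, 1.14 to 8.96, 135 against 1 count), Pcolce2 (3.45, 1.58 to 6.51, 237 against 2), the cross-linking enzyme Loxl2 (-2.92, -3.02 to -2.82) and P3h3 (-2.29, -2.67 to -1.90). With shLarp1, 2 were higher (Pcolce and Pcolce2) and 2 lower (P3h3 and Loxl2). None was called between the viruses in the IP (median 0.00). In input Pcolce, an enhancer of procollagen trimming, was lower with 12 and 1 counts (-3.78, -9.20 to -1.03). The interaction called Pcolce higher (3.62) and Loxl2 lower (-1.01).

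Of 20 other matrix proteins (median -0.05), 2 were higher and 5 lower in control IP over input, led by Omd (osteomodulin, -2.89), Emilin1 (-2.09), Ccn1 (-1.83) and Igfbp5 (1.69). With shLarp1 2 were higher and 4 lower, led by Omd (-4.16), Emilin1 (-2.95), Igfbp4 (-1.95) and Sparcl1 (1.86). Omd was the only one called between the viruses, lower in the IP (-0.77, -0.87 to -0.67), and its interaction was lower too (-1.27). Among matrix receptors (median 0.69) 4 of 16 were higher and 0 lower in control IP over input, namely the integrin chains Itga7 (1.65) and Itgb1 (1.37), the hyaluronan receptor Cd44 (1.29) and the proteoglycan Sdc1 (1.08). With shLarp1 these were Itga7 (1.68), Cd44 (1.12), Sdc3 (1.22) and Itga3 (98 counts against 0). No receptor was called between the viruses in either fraction.

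Of 16 matrix proteases (median 0.76), Adam15 (1.56) was higher and Mmp14 (-1.87) lower in control IP over input, and Htra1 (1.57) was higher and Mmp14 (-2.47) and Mmp2 (-1.89) lower with shLarp1. Adamts5, an aggrecan-cleaving protease, was lower with shLarp1 in the IP, with 75 and 31 counts (-1.43, -2.08 to -0.81). Of 9 evaluated genes of transforming growth factor beta signalling, which drives matrix synthesis, Tgfb1 was lower in control IP over input (-1.61), and Tgfbi was higher (1.64) and Tgfb1 (-2.22) and Smad6 (-2.89) lower with shLarp1. None of the 9 was called between the viruses in the IP or in input.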

How the data were processed

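RNA of HA immunoprecipitates and input was sequenced with a nanopore cDNA-PCR barcoding kit, per the labels' protocols. The authors' table gives estimated counts for each gene as whole numbers that are not scaled to depth; per the submitters' processing notes minimap2, Salmon and GRCm39 (mm39) were used. Their versions, the annotation and the use of strand were not stated in these sources. Symbols came from a gene name table (13711 of 15391 genes). Counts were summed over the 3 columns of a group, because most tested genes differed between columns by about sampling noise. The sums were scaled by TMM factors (edgeR 4.0.16, R 4.3.3). A log2 ratio carries an exact Clopper-Pearson 95% interval. The interaction and contrasts between genes add 0.5 counts and use a normal approximation. The intervals cover counting error only and would not cover extra spread from PCR duplicates. Genes with low counts were removed by filterByExpr (minimum count 10), leaving 8773 genes.

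The members and lists were chosen with earlier results of these data known. Overlap of columns was read for members only, so no share over all genes is given. The pairs of genes set against each other were not named in the design, and no rate over other pairs was computed. Values per column are given for members called in any of 5 comparisons and for the 3 most counted members of each role group; from other lists, called genes up to 5, otherwise the 4 largest ratios. Alternatives were other scalings, no filter, other fold rules, left-out columns, and edgeR's quasi-likelihood test and DESeq2 1.42.0 on the columns at an adjusted p of 0.05. The methods were tested on simulated data. The simulated columns held Poisson noise only, and the intervals were checked after centring on the median error. That check could therefore show neither errors of scaling nor the effect of a wider spread.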

Additional observations from a re-analysis of the deposited data

Results flagged for a closer look

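The effect of the virus had opposite signs in IP and input, with no overlap between the columns of the viruses in either fraction, for Fn1 and Mgp. Fn1 had -0.47 in the IP and 0.42 in input, a log2 difference of -0.89 that was called lower. Mgp had 0.47 in the IP and -0.23 in input, a difference of 0.70 that was not called. In input the raw counts of Mgp overlapped between the viruses (140, 146 and 149 against 142, 141 and 141), and only the scaled columns did not. With 1 sample per group neither difference could be tested over replicates. The input value of Mgp became 0.0006 with a control IP column as the scaling reference, so the opposite sign holds for Fn1 under all 5 scalings and not for Mgp.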

How the results depend on the processing

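The numbers of members called are given with the share of all genes called under the same setting. For IP over input with the control virus (7 of 31, 35.5% of genes), total counts gave 12 (59.3%), the 2-fold rule 4 (25.3%), no fold minimum 14 (57.6%), the edgeR quasi-likelihood test 13 (55.4%), the same test with a replicate block 13 (54.4%), and DESeq2 12 (52.3%). For IP over input with shLarp1 (6 of 31, 39.004%) total counts gave 16 (79.0%), no fold minimum 15 (62.7%), the quasi-likelihood test 13 (61.2%), with the replicate block 12 (60.1%), and DESeq2 12 (52.9%). For the virus in the IP (0, 5.12%) no filter gave 2 of 41 (6.93%), no fold minimum 14 (43.0%), the quasi-likelihood test 11 (27.7%), with the replicate block 12 (26.3%), and DESeq2 9 (21.4%). For the virus in input (0, 1.19%) no fold minimum gave 5 (18.2%), the quasi-likelihood test 2 (8.88%), with the replicate block 2 (8.60%), and DESeq2 3 of 25 (17.1%). For the interaction (1, 6.96%) the 2-fold rule gave 0 (1.57%), no fold minimum 7 (21.6%), the quasi-likelihood test 4 (11.1%), with the replicate block 4 (10.9%), and DESeq2 4 of 25 (18.4%). Leaving out 1 column, with the scaling recomputed, gave 6 to 7 members for IP over input with the control virus (28.8% to 35.2% of genes). With shLarp1 it gave 4 to 7 (29.4% to 38.6%). In both, the lowest shares came without an input column. For the virus it gave 0 to 0 in the IP (4.14% to 4.75%) and in input (3.03% to 3.28%). For the interaction it gave 1 to 2 (6.76% to 7.60%), where Timp3 joined Fn1 without control input column 2. Without shLarp1 input column 2, Timp2 and Vim were no longer called. Without shLarp1 input column 1 or 3 Vim was lost and Col5a2 joined, with Timp3 also joining without column 1; without control input column 1 or 3 Vim was lost. Same-numbered columns did not deviate together (correlations of -0.20 to 0.25 over 18 pairs, 6 above 0.1), so the replicate number was taken as a name only. Total counts turned Mgp to 0.0880 (IP over input, control virus) and Timp1 to 0.11 (shLarp1), and called Mgp in place of Fn1 in the interaction. The cause of these moves was not tested. Input depth limits most members: the floor of 3 counts over a group corresponds to 2.45 CPM in control input against 0.227 in control IP.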
